A study of Mus musculus with 6 samples.

Results

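The nuclei described here were chosen by a rule for eccentric medium spiny neurons, a minority class of striatal projection neuron marked by Otof, Col11a1, Casz1, Tshz1, Foxp2 and Cacng5. A nucleus was taken when the values of Otof, Col11a1, Casz1 and Tshz1 summed to at least 5, Foxp2 was at least 2, Slc17a7 was at most 1, Drd2 and Adora2a together were at most 2, and Mog and Mag together were at most 1. The rule found 880 of the 48834 nuclei, 1.80% of the series. They came from dissected, flash-frozen mouse striatum, from which nuclei were isolated and sequenced on the 10x Genomics platform. The study compared 3 wild-type libraries with 3 libraries heterozygous for Celsr3, each library being a separate biological replicate. Celsr3 encodes an atypical cadherin of the planar cell polarity pathway. The labels give neither the allele nor the strain, sex, age or litter of the animals.

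Medium spiny neurons are the GABA-releasing projection neurons of the striatum. The canonical D1 and D2 types are told apart by their dopamine receptors and peptides, and both are found in striosomes and in the surrounding matrix. Eccentric medium spiny neurons lie scattered among them, resemble D1 neurons in part and are known for a set of genes that both canonical types lack.

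The values were read as depth-corrected UMI values per nucleus, rounded to whole numbers. This reading comes from the values themselves and is not stated in the sources used here. All levels are means per nucleus. Wild-type libraries 1 to 3 gave 104, 115 and 145 selected nuclei, and heterozygous libraries 1 to 3 gave 195, 228 and 93. The median number of genes above 0 in a selected nucleus was 3225.5, and library medians lay between 3130 and 3305. Of the 880 nuclei, 8 had a doublet score above 0.25, against 713 of all nuclei (1.46%). Barcodes shared between libraries numbered 274, and 10 selected nuclei carried one. The summed level of 6 oligodendrocyte genes in the selected nuclei was 7.33, 6.97 and 6.30 in wild-type libraries 1 to 3 and 3.47, 5.15 and 8.31 in heterozygous libraries 1 to 3, and these 2 ranges overlapped; in nuclei that were neither selected nor D1 nor D2 it was 40.6. The 7 glutamatergic genes summed to 0.590 in the selected nuclei, 1.19 in D1 nuclei, 1.03 in D2 nuclei and 2.00 in the other nuclei. None of either list was at 0. The rule capped Mog and Mag, which are on the oligodendrocyte list, and Slc17a7, which is on the glutamatergic list. Both sums in the selected nuclei were thus partly set by the choice and do not measure purity.

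The 4 summed markers were unevenly shared among the selected nuclei. The marker sum ran from 5 to 23 with a median of 7, and Foxp2 from 2 to 58 with a median of 17. Tshz1, the gene of a zinc finger transcription factor, was the highest of the 4 in 460 nuclei (52.3%). Otof, which encodes the calcium sensor otoferlin, was highest in 174, the collagen gene Col11a1 in 97 and the transcription factor gene Casz1 in 27, with ties in 122. All 4 markers were above 0 in 242 nuclei, and 111 nuclei had a single marker above 0. These values chose the nuclei and are given as a description. At the edge of the rule, 176 nuclei had a marker sum of exactly 5 and 255 nuclei just outside had a sum of 4. Mean Cacng5 was 0.386 inside this edge and 0.298 outside, mean Pcdh8 was 0.170 and 0.239, mean Adarb2 was 13.3 and 12.2, and mean Pde10a was 11.4 and 12. A further 309 nuclei failed on Foxp2 alone, 48 on Drd2 and Adora2a, 37 on Slc17a7 and 23 on Mog and Mag.

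To place the selected nuclei, levels were set beside 6562 D1 and 5615 D2 medium spiny neuron nuclei, chosen by a sum of at least 10 over 4 general medium spiny neuron genes, Pde10a, Rgs9 and Ppp1r1b among them, and by D1 or D2 genes. D1 nuclei had a sum of at least 2 over Drd1, Tac1, Pdyn and Isl1 with Drd2 and Adora2a together at most 1, and D2 nuclei had at least 4 over Drd2 and Adora2a. Because expression chose every one of these sets, the differences are a description with no test, and the 18 genes used to choose any set were left out of the counts. Of 3082 genes with a mean of at least 0.5 in any of the 3 sets, 724 (23.5%) were above both D1 and D2 nuclei in 6 of 6 libraries and 706 (22.9%) were below both. Of the 3082, 310 passed this limit only through the selected nuclei and 384 only through D1 or D2 nuclei, and for these the limit favours a direction. Counts for gene lists were therefore made over every list gene outside the choosing genes, with no limit. Over all 24823 such genes, 6.41% were above both sets in 6 of 6 libraries and 7.55% below, with many genes near 0. Counts for lists made mostly of genes with a mean of at least 0.5 are therefore also to be set beside the 23.5% and 22.9%. Values after ± are SDs over 6 libraries for levels and for differences from D1 or D2 nuclei, SDs over 3 libraries for genotype means, and limma standard errors (SE) for differences between genotypes. Differences are on the log2(mean + 0.01) scale. Means over the selected nuclei pool 12 numbered clusters, made from genes outside the rule, that differed widely from each other, and not every cluster shared the direction of the whole.

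Of 6 markers outside the rule, 4 were above both comparison sets in 6 of 6 libraries and none was below. Cacng5, an auxiliary subunit of AMPA receptors, averaged 0.433, 0.565 and 0.579 in wild-type libraries 1 to 3 and 0.318, 0.412 and 0.613 in heterozygous libraries 1 to 3. Every library lay above the D1 range of 0.0489 to 0.0882 and the D2 range of 0.0613 to 0.0843. Pcdh8, a protocadherin gene, stood at 0.279, 0.217 and 0.338 in wild-type libraries 1 to 3 and 0.149, 0.329 and 0.333 in heterozygous libraries 1 to 3, against a mean of 0.0214 in D1 and 0.0203 in D2 nuclei. Adarb2, an RNA-editing family gene, was the most abundant of these markers, with 21.1, 22.1 and 18.2 in wild-type libraries 1 to 3 and 13.2, 16.3 and 17.1 in heterozygous libraries 1 to 3. D1 nuclei had 2.39 ± 0.311 and D2 nuclei 0.224 ± 0.0940, so the groups did not overlap in any library. Nxph4, a neurexophilin gene, was low in every set, with 0.0598 in the selected nuclei, 0.00418 in D1 nuclei and 0.00210 in D2 nuclei, and Th, the tyrosine hydroxylase gene, averaged 0.00913. Grm8, a metabotropic glutamate receptor gene, had a wide range of 2.10 to 6.66 over libraries, which overlapped the D1 range of 1.47 to 3.31. Cacng5 or Pcdh8 was above 0 in 417 of the 880 nuclei, and 552 reached the sum of 10 over general medium spiny neuron genes that the D1 and D2 nuclei had to reach. A value of 0 at these levels does not show that a gene is not expressed. Clusters differed in these markers, clusters 8 and 12 went against the label, and clusters 5, 6 and 7 did so for part of the markers. For this reason "the selected nuclei" is used for the whole. The 6 markers summed to 1.65 in cluster 8, beside 4.81 in D1 nuclei. Cacng5 was 0 in clusters 9 and 11, although the 6 markers summed there to 6.46 and 8.06. Adarb2 alone gave 6.25 and 7.19 of these sums. It also gave 36.6 of the highest sum, 39.1 in cluster 5. In D1 nuclei Adarb2 gave 2.39 and Grm8 2.32 of the 4.81. The sums thus mostly follow these abundant genes and do not stand for each marker.

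**Figure D1:**
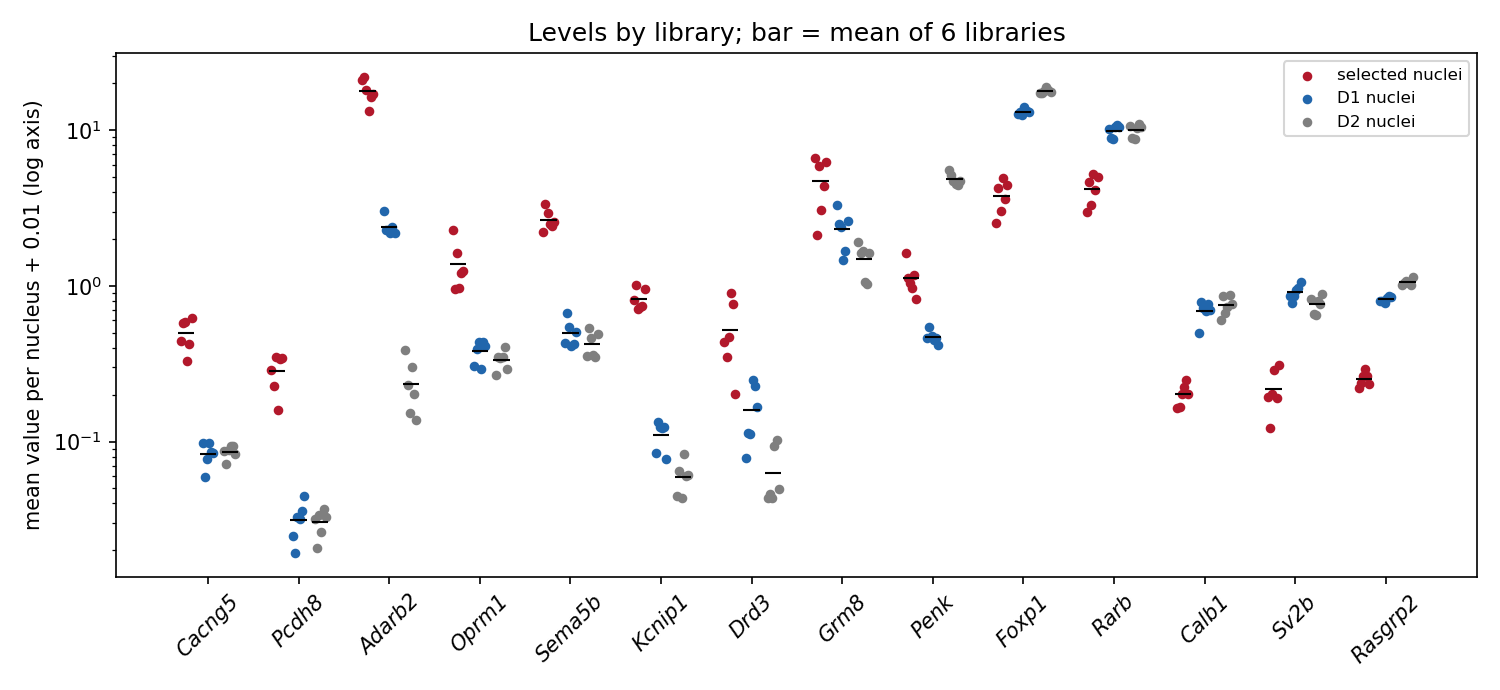
Mean value per nucleus plus 0.01 on a log axis for 14 genes, in the selected nuclei, D1 nuclei and D2 nuclei; each point is 1 of 6 libraries and bars are means. Cacng5, Pcdh8, Adarb2, Oprm1, Sema5b and Kcnip1 lay above both comparison sets in every library, whereas Foxp1, Rarb, Calb1, Sv2b and Rasgrp2 lay below both; Grm8 and Drd3 spread widely.

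Of the 8 striosome genes outside the choosing set, 6 were above both comparison sets in 6 of 6 libraries and 1, Kremen1, was below. The median log2 difference was 1.41 from D1 and 1.85 from D2 nuclei, and over all genes -0.05 and -0.02. Oprm1, the mu opioid receptor gene, stood at 2.27, 0.948 and 1.63 in wild-type libraries 1 to 3 and 0.954, 1.21 and 1.24 in heterozygous libraries 1 to 3. The D1 libraries ranged over 0.282 to 0.428 and the D2 libraries over 0.258 to 0.395, and wild-type library 1 was the highest of the selected nuclei. Sema5b, a semaphorin gene, had 2.20, 3.35 and 2.95 in wild-type libraries 1 to 3 and 2.51, 2.40 and 2.56 in heterozygous libraries 1 to 3, against means of 0.486 and 0.416. Kcnip1, a potassium channel interacting protein gene, had the largest difference of the list, with 0.818 in the selected nuclei, 0.101 in D1 nuclei and 0.0495 in D2 nuclei. Lypd1 (0.859 in the selected nuclei, 0.270 in D1 nuclei and 0.204 in D2 nuclei) and the transcription factor gene Bach2 (2.18 in the selected nuclei, 0.919 in D1 nuclei and 1.02 in D2 nuclei) were also above. Nnat, the neuronatin gene, differed least of the 6, with 0.867 in the selected nuclei, 0.623 in D1 nuclei and 0.625 in D2 nuclei. The 3 other genes of the list did not lie above both sets. Kremen1, a Wnt pathway receptor gene, was lower than both in 6 of 6 libraries, with 0.0740 in the selected nuclei, 0.208 in D1 nuclei and 0.213 in D2 nuclei. Asic4, an acid-sensing channel family gene, averaged 0.249 in the selected nuclei, 0.341 in D1 nuclei and 0.0695 in D2 nuclei, and Pdyn, the dynorphin precursor gene, left out because it chose D1 nuclei, 0.173 in the selected nuclei, 0.510 in D1 nuclei and 0.0515 in D2 nuclei; both lay between D1 and D2 nuclei.

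On the matrix list, 6 of 7 genes were below both comparison sets in 6 of 6 libraries and none was above, with median differences of -1.30 and -1.33. Calb1, the calbindin gene that classically marks matrix, had 0.154, 0.157 and 0.193 in wild-type libraries 1 to 3 and 0.215, 0.237 and 0.194 in heterozygous libraries 1 to 3. D1 libraries ranged over 0.491 to 0.777 and D2 libraries over 0.595 to 0.864, with no overlap. Sv2b, a synaptic vesicle protein gene that is also on the glutamatergic list, averaged 0.208 in the selected nuclei, 0.900 in D1 nuclei and 0.755 in D2 nuclei. Rasgrp2, a Rap exchange factor gene, averaged 0.243 in the selected nuclei, 0.810 in D1 nuclei and 1.05 in D2 nuclei. Id4, Kcnip2 and the Eph receptor gene Epha4 were also below, the last 2 with differences from D1 nuclei of -1.30 ± 0.09 and -0.61 ± 0.22. The mean of Epha4 differed between clusters of the selected nuclei: it was 3.19 in cluster 1, above its D1 mean of 2.22 and D2 mean of 2.58, and 0.321 in cluster 2.

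General medium spiny neuron genes were divided. Of 11 genes outside the choosing set, 8 were below both comparison sets and 3 above in 6 of 6 libraries. The 3 above were Gad1 and Gad2, which encode the enzymes that make GABA, and Meis2, a homeobox gene of striatal neurons. Gad2 averaged 1.87 in the selected nuclei, 1.28 in D1 nuclei and 1.23 in D2 nuclei, and Meis2 16.8 in the selected nuclei, 10.3 in D1 nuclei and 12.8 in D2 nuclei. Foxp1, a transcription factor of canonical striatal neurons, had 2.51, 4.27 and 3.02 in wild-type libraries 1 to 3 and 4.92, 3.63 and 4.45 in heterozygous libraries 1 to 3. No library came near the D1 mean of 13.2 or the D2 mean of 17.9, and wild-type library 1 was the lowest. Rarb, a retinoic acid receptor gene, averaged 4.22 in the selected nuclei, 9.94 in D1 nuclei and 10.0 in D2 nuclei. Pde1b, Gng7, Adcy5, Ano3, Bcl11b and Rgs7bp were the others below. Among 27 transcription factor genes, 5 (Pbx3, Bcl11a, Rxrg, Meis2 and Sp8) were above and 6 (Zfhx3, Foxp1, Rarb, Tle4, Bcl11b and Sox8) below. With a mean of at least 0.5 in any set, 4 of 14 were above and 5 below. Over all such genes the shares were 23.5% and 22.9%, so these counts are not read as a trait of the list. Pbx3, a homeobox gene, averaged 11.9 in the selected nuclei, 4.41 in D1 nuclei and 3.91 in D2 nuclei.

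Of 19 dopamine signalling genes outside the choosing set, 10 were below both comparison sets and 1, Drd3, was above, with median differences of -0.33 and -0.40. The genes below included the adenylyl cyclase gene Adcy5, with a difference of -0.96 ± 0.25 from D1 nuclei, the G protein subunit gene Gng7 at -0.98 ± 0.21, the olfactory-type G protein gene Gnal at -0.36 ± 0.24 and the phosphodiesterase genes Pde1b, Pde2a and Pde7b. Gnal was not low in every cluster: it averaged 5.94 in cluster 1 and 5.61 in cluster 3, above the D1 mean of 5.07, and 2.40 in cluster 2 and 1.43 in cluster 4. The D1 and D2 nuclei had to reach a core sum that only 552 of the selected nuclei reached, and its part in these differences was not tested. Drd3, the D3 dopamine receptor gene, had 0.423, 0.339 and 0.462 in wild-type libraries 1 to 3 and 0.892, 0.759 and 0.194 in heterozygous libraries 1 to 3. Heterozygous libraries 1 and 2 were the highest and heterozygous library 3 the lowest. Drd3 was above 0 in 31.0% of the selected nuclei, 10.6% of D1 nuclei and 4.08% of D2 nuclei, at median numbers of genes per nucleus of 3225.5, 3382 and 3308. Drd1, used to choose the D1 nuclei, averaged 0.732 in the selected nuclei, 1.23 in D1 nuclei and 0.120 in D2 nuclei.

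Peptide genes of both canonical types had values above 0 in the selected nuclei. Tac1, the substance P precursor gene, averaged 1.17, 1.91 and 1.73 in wild-type libraries 1 to 3 and 1.75, 1.41 and 2.33 in heterozygous libraries 1 to 3, and Penk, the enkephalin precursor gene, 1.62, 1.12 and 1.04 in wild-type libraries 1 to 3 and 0.954, 1.16 and 0.817 in heterozygous libraries 1 to 3. For Penk this lay between D1 nuclei, with 0.458 ± 0.0430, and D2 nuclei, with 4.85 ± 0.434. Tac1 and Penk were both above 0 in 31.3% of the selected nuclei, 24.6% of D1 nuclei and 23% of D2 nuclei; Tac1 was among the genes that chose the D1 nuclei. Tac1, with or without Penk, was above 0 in 61.3% of the selected nuclei and 25.2% of D2 nuclei. Penk, with or without Tac1, was above 0 in 52.8% of the selected nuclei and 29.7% of D1 nuclei. Free RNA can give such values in nuclei that do not express a gene, so the share with both is not read as co-expression. Of the opioid receptor genes, Oprm1 was above 0 in 53.8% of the selected nuclei, against 22.3% and 21.7%, whereas Oprd1, the delta receptor gene, averaged 0.0900 in the selected nuclei, 0.0256 in D1 nuclei and 0.718 in D2 nuclei.

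Receptor and channel genes lay on both sides. Over all genes with a mean of at least 0.5 in any set, 23.5% were above both comparison sets and 22.9% below. With that limit the glutamate receptor list gave 3 above and 10 below of 23, and the GABA-A list 3 and 3 of 10. Potassium channel genes gave 10 and 9 of 24, and sodium and calcium channel genes 1 and 6 of 17. The counts that follow have no limit, and without it 6.41% of all genes were above and 7.55% below. Of 30 glutamate receptor genes, 7 were above and 10 below both comparison sets. Grin2a, an NMDA receptor subunit gene, averaged 11 in the selected nuclei, 6.60 in D1 nuclei and 6.91 in D2 nuclei, and Grik4, a kainate receptor subunit gene, 1.25 in the selected nuclei, 0.481 in D1 nuclei and 0.293 in D2 nuclei. Grm5, a metabotropic receptor gene, was lower, with 12.6 in the selected nuclei, 23.5 in D1 nuclei and 26.6 in D2 nuclei. The GABA-A receptor genes gave 3 above and 3 below of 12. Gabra3 averaged 0.942 in the selected nuclei, 0.0952 in D1 nuclei and 0.212 in D2 nuclei, and Gabrd, the gene of the extrasynaptic delta subunit, 0.296 in the selected nuclei, 0.814 in D1 nuclei and 0.804 in D2 nuclei. Potassium channel genes gave 10 above and 11 below of 28. Kcnj3 and Kcnj6 encode inwardly rectifying channel subunits opened by G proteins. Kcnj3 had 2.71, 1.98 and 2.86 in wild-type libraries 1 to 3 and 2.22, 2.68 and 2.54 in heterozygous libraries 1 to 3, and every value was above the D1 range of 0.249 to 0.453. Kcnj6 averaged 0.956 in the selected nuclei, 0.0709 in D1 nuclei and 0.0281 in D2 nuclei, but 0.0809 in cluster 1, the largest, and 0.0816 in cluster 5; clusters 2 and 4 had 1.64 and 2.51. Kcnc2, a fast delayed rectifier gene, averaged 2.24 in the selected nuclei, 0.302 in D1 nuclei and 0.170 in D2 nuclei, and Kcna4 was lower, with 0.296 in the selected nuclei, 0.901 in D1 nuclei and 1.00 in D2 nuclei. Sodium and calcium channel genes gave 2 above, Cacna1d and Cacna1g, and 7 below of 21.

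Adhesion and axon guidance genes gave 20 above and 8 below of 48, with median differences of 0.53 and 0.49. Without a limit 6.41% of all genes were above and 7.55% below. With a mean of at least 0.5 in any set, the list gave 18 above and 8 below of 42, and all genes gave 23.5% and 22.9%. The count below was thus near the share of all such genes. Robo1, a Slit receptor gene, was almost constant over libraries, with 22.5, 23.4 and 23.5 in wild-type libraries 1 to 3 and 23.3, 23.5 and 21.6 in heterozygous libraries 1 to 3. D1 nuclei had 9.68 ± 0.492 and D2 nuclei 9.71 ± 0.568. Robo2 went the other way, with 4.65 in the selected nuclei, 9.06 in D1 nuclei and 8.60 in D2 nuclei, as did the netrin receptor gene Dcc, with 7.30 in the selected nuclei, 18.3 in D1 nuclei and 19.2 in D2 nuclei. Among its semaphorin genes, Sema5a, Sema5b, Sema6d and Sema3e were above both sets and Sema3a was not, with 0.895 in the selected nuclei, 0.924 in D1 nuclei and 0.714 in D2 nuclei. Plxna4, a semaphorin receptor gene, was above both, with 3.18 in the selected nuclei, 1.12 in D1 nuclei and 1.11 in D2 nuclei. Nlgn1, a neuroligin gene, was below both, with 14.2 in the selected nuclei, 29.8 in D1 nuclei and 26.7 in D2 nuclei. Of 14 planar cell polarity genes, 4 were above both sets and none below: Celsr2, Vangl2, Prickle1 and Prickle2. The last 2 encode cytoplasmic proteins of the pathway, Prickle1 with 2.34 in the selected nuclei, 1.52 in D1 nuclei and 1.35 in D2 nuclei and Prickle2 with 2.41 in the selected nuclei, 1.64 in D1 nuclei and 1.14 in D2 nuclei.

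Among genes with a mean of at least 0.5 in the selected nuclei, those furthest above both comparison sets were Chst9, Ankfn1, Vwc2l, B020031H02Rik, Thsd7b, Zfp804b, Gm40663, Gm15398, Pcdh15, March3, Cpne4, Kcnj6, Adamtsl1, Ppm1e and Car10. Chst9, a sulfotransferase gene, had 3.20, 0.991 and 2.54 in wild-type libraries 1 to 3 and 1.46, 2.17 and 1.98 in heterozygous libraries 1 to 3, with 0.0402 in D1 and 0.0165 in D2 nuclei. All 6 values were above both comparison ranges, and wild-type library 2 was the lowest and wild-type library 1 the highest. Chst9 was nonetheless a gene of some clusters, with 4.54 in cluster 2, 7.25 in cluster 4 and 10.8 in cluster 10, but 0.0723 in cluster 1 and 0 in clusters 9 and 11. Cluster 1 was also low in Cpne4 (0.0809), Adamtsl1 (0.0766) and Zfp804b (0.277), beside D1 means of 0.171, 0.0519 and 0.198. Pcdh15, a protocadherin gene best known from hair cells, was the most abundant of the 15, with 13.6 in the selected nuclei, 0.817 in D1 nuclei and 0.454 in D2 nuclei, and ranged over 12.3 to 16.3 in the libraries; it stood at 20.5 in cluster 1 and 0.647 in cluster 8. Vwc2l, the gene of a secreted protein, averaged 2.38 in the selected nuclei, 0.0723 in D1 nuclei and 0.0497 in D2 nuclei. The 10 genes furthest below were Ror1, Klhl1, Kctd8, Prkch, Synpo2, Gm44129, Stk32a, Gli3, Sh3rf2 and Foxo1. Some of them were not low in every cluster. Cluster 6 had Ror1 at 1.21, Gli3 at 1.31 and Prkch at 0.881, beside D1 means of 1.27, 0.949 and 1.19. Cluster 8 had Stk32a at 1.94 and Sh3rf2 at 1.88, beside D1 means of 1.52 and 1.36. Ror1, a Wnt receptor kinase gene, averaged 0.108 in the selected nuclei, 1.27 in D1 nuclei and 1.06 in D2 nuclei, and the difference from D1 nuclei was -3.55 ± 0.68. Kctd8, an auxiliary subunit gene of GABA-B receptors, differed by -2.97 ± 0.32, and the transcription factor gene Foxo1 by -2.64 ± 0.30.

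Clustering of the 880 nuclei without the rule genes gave 12 clusters, which are kept as numbers. Clusters 1, 2 and 3 held 235, 196 and 140 nuclei and had at least 8 nuclei in every library. Cluster 1 had mean Pde10a 24.2, beside 21.3 in D1 nuclei, Tac1 3.58 and Otof 3.17; its leading genes included Alk, a receptor tyrosine kinase gene (9.11 against 1.64 in the other selected nuclei), and Robo3, a guidance receptor gene (0.630 against 0.0651). Cluster 2 had little Pde10a, 4.37, and much Meis2, 24.2, and was led by genes such as Inpp4b (15.3 against 3.73), Npffr2, a neuropeptide FF receptor gene (0.990 against 0.205), and Vwc2l (5.87 against 1.33). Cluster 3 lay between them in Pde10a, 14.3, had Penk at 1.77 and was led by Pdzrn4 (5.65 against 1.14). Tac1 and Penk were both above 0 in 46.0% of cluster 1, 27.6% of cluster 2 and 53.6% of cluster 3. With a second random seed clusters 1 and 2 stayed whole, but only 45% of cluster 3 stayed together. At a clustering resolution of 1 in place of 0.5, which gave 15 clusters, 52.3% of cluster 1, 60.7% of cluster 2 and 60% of cluster 3 stayed together. Against D1 and D2 nuclei, cluster 1 alone had 503 genes above both and 629 below, of which 313 and 450 were shared with the whole set. In cluster 1, 15 genes that were above in the whole set were below and 4 that were below were above.

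The smaller clusters differed in markers and in the libraries they came from. Cluster 4, of 75 nuclei, had Oprm1 at 3.17, the highest after cluster 12 at 3.92, and was led by Eya4, Fbxl7 and Slc12a8. It had no nucleus from wild-type library 2. Its 15 general medium spiny neuron genes summed to 39.1, beside 87.6 in D1 nuclei, with Rgs9 at 0.533 beside 5.72. Cluster 5, of 49 nuclei, was led by 2610307P16Rik, Nfia, Sox6 and Zeb2 and had Adarb2 at 36.6. Its oligodendrocyte genes summed to 15.8, beside 6.25 over the selected nuclei. The sums were 3.55 beside 0.521 for oligodendrocyte precursor genes, 6.27 beside 1.76 for neuroblast genes and 2.63 beside 0.663 for microglial genes. Its median number of genes was 2058. Of the genes of the rule, Otof averaged 0.102 and Tshz1 5.43 there. Cluster 6, of 42 nuclei, had Ebf1 (4.17 against 0.0406), a transcription factor gene of D1 neurons, and Foxp1 at 10.3. The D1 mean of Ebf1 was 3.36, and Drd1 averaged 1.12 in cluster 6, beside 1.23 in D1 nuclei. Its 15 general medium spiny neuron genes summed to 84.4, beside 87.6, so in these genes cluster 6 was close to D1 nuclei. Its 6 eccentric markers outside the rule summed to 11.3, beside 4.81 in D1 nuclei. Cluster 7, of 36 nuclei, was led by genes that included the tachykinin receptor gene Tacr3 (0.50 against 0.00355). The 15 general medium spiny neuron genes summed there to 24.4, below the 29.7 of nuclei that were neither selected nor D1 nor D2. In these genes cluster 7 went against the label, while its 6 eccentric markers outside the rule summed to 17.0. Clusters 8 and 9, of 34 and 24 nuclei, came only from heterozygous libraries 1 and 2. Their counts were 0, 0, 0, 22, 12 and 0 and 0, 0, 0, 20, 4 and 0 over wild-type libraries 1 to 3 and heterozygous libraries 1 to 3. Cluster 8 had Isl1, a D1 lineage homeobox gene, at 0.588, Cacng5 at 0.235 and Adarb2 at 0.676, beside D1 means of 0.311, 0.0736 and 2.39. Its 6 eccentric markers outside the rule summed to 1.65, beside 4.81 in D1 nuclei. Its 8 D1 genes summed to 6.44, beside 4.75 in D1 nuclei, so cluster 8 went against the label. Cluster 9 had Isl1 at 0.958, Cacng5 at 0 and Dpp10 at 110 against 9.48. Cluster 11, of 16 nuclei, had the thyrotropin receptor gene Tshr as leading gene, and 15 of its nuclei were from heterozygous libraries. Cluster 10 held 21 nuclei, and its 15 general medium spiny neuron genes summed to 33.8. The 12 nuclei of cluster 12 had Gad1 at 0.0833 and a glutamatergic sum of 8.33, and so went against the label.

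**Figure D2:**
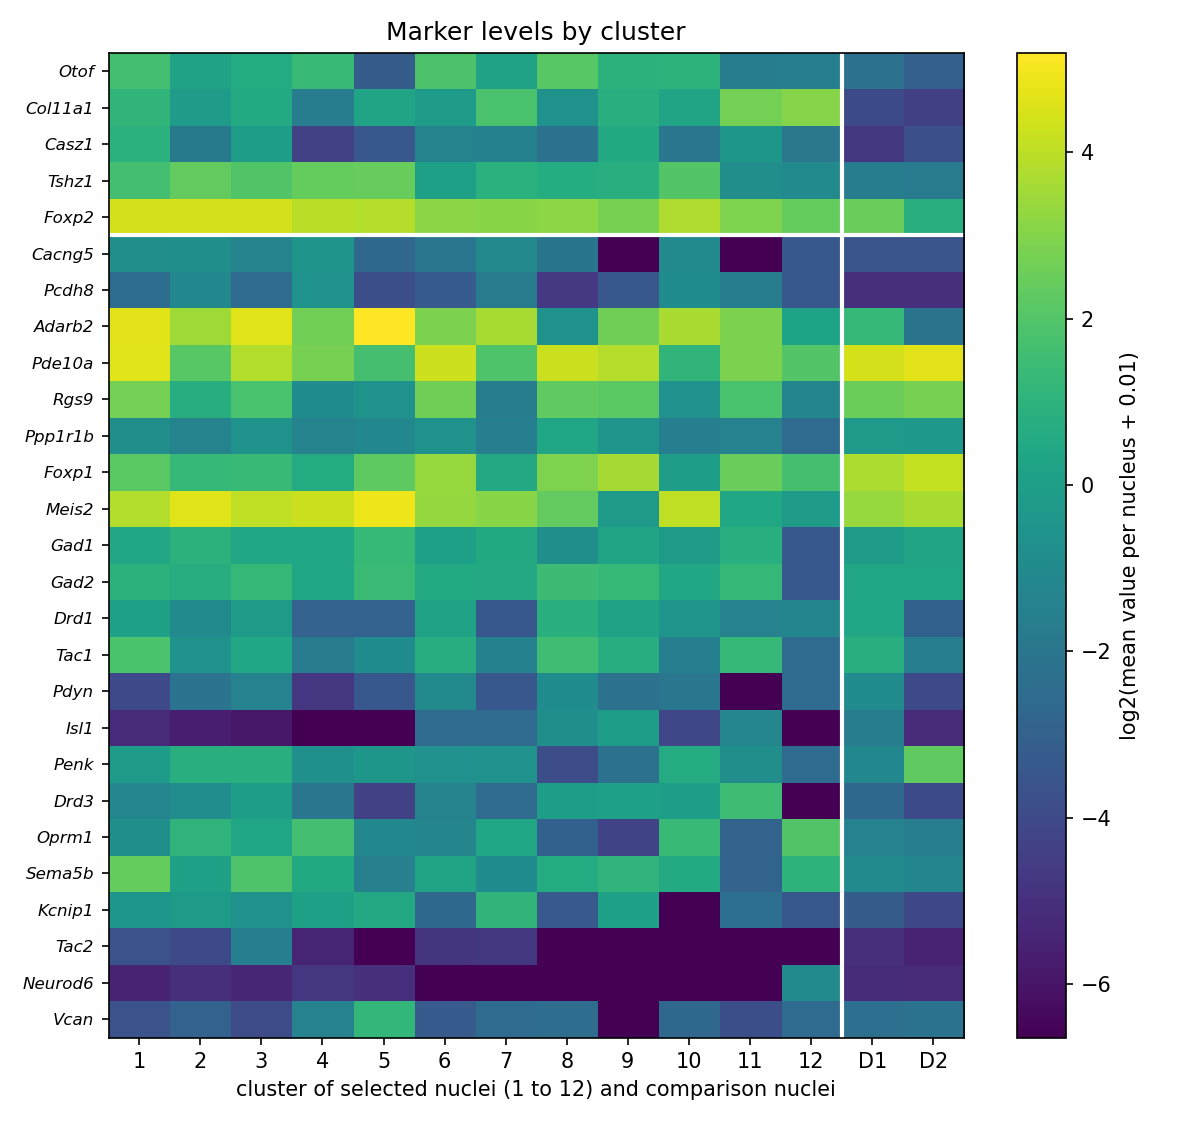
Heat map of log2(mean value per nucleus + 0.01) for 27 marker genes (rows, the 5 genes of the rule that were required above the line) in 12 clusters of the selected nuclei and in D1 and D2 nuclei (columns). Cluster 1 shares high Pde10a with D1 and D2 nuclei, cluster 2 has low Pde10a and high Meis2, and cluster 12 has almost no Gad1 or Gad2.

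Within the 880 nuclei, the genes whose presence was most like that of Otof were Cap2, Sema5b, Gm15155, Sema3a, Lrrk2, Actn2, Gprin3 and Sh3rf3. Their correlations of presence with Otof ran from 0.297 for Sh3rf3 to 0.323 for Cap2, over 880 nuclei that share 6 libraries, against a median of 0.040 over 10985 genes. Otof is a gene of the rule, so nuclei without it had to pass on the other markers, and these correlations describe the selected nuclei alone and support nothing further. Sema3a, a semaphorin gene, was above 0 in 48.1% of nuclei with Otof and 13.4% of nuclei without it. Sema5b was above 0 in 80.2% and 47.5%.

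The share of selected nuclei among all nuclei was 1.34, 1.46 and 1.79 in wild-type libraries 1 to 3 and 2.47, 2.73 and 1.05 in heterozygous libraries 1 to 3 (percent). Heterozygous libraries 1 and 2 were the highest and heterozygous library 3 the lowest of all 6, so the groups overlapped. Means were 1.53 ± 0.234% in wild type and 2.08 ± 0.904% in heterozygotes (SD, n = 3 each; two-sided exact permutation p = 0.4, where 3 against 3 cannot go below 0.1). Without heterozygous library 3 the difference was 1.07 percentage points, against 0.550 with it. The exact permutation p was then 0.2, the smallest that 3 against 2 libraries can give. Among selected, D1 and D2 nuclei together, the selected nuclei made up 6.19, 4.04 and 7.53 in wild-type libraries 1 to 3 and 9.07, 9.46 and 4.54 in heterozygous libraries 1 to 3 (percent; exact permutation p = 0.4). The difference was 1.77 percentage points and 3.34 without heterozygous library 3. When only clusters 1 to 3 were counted, a setting added after seeing the data, the difference in the share of all nuclei was 0.151 percentage points. A change in the number of nuclei of a kind and a change in the number passing the rule cannot be told apart.

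**Figure D3:**
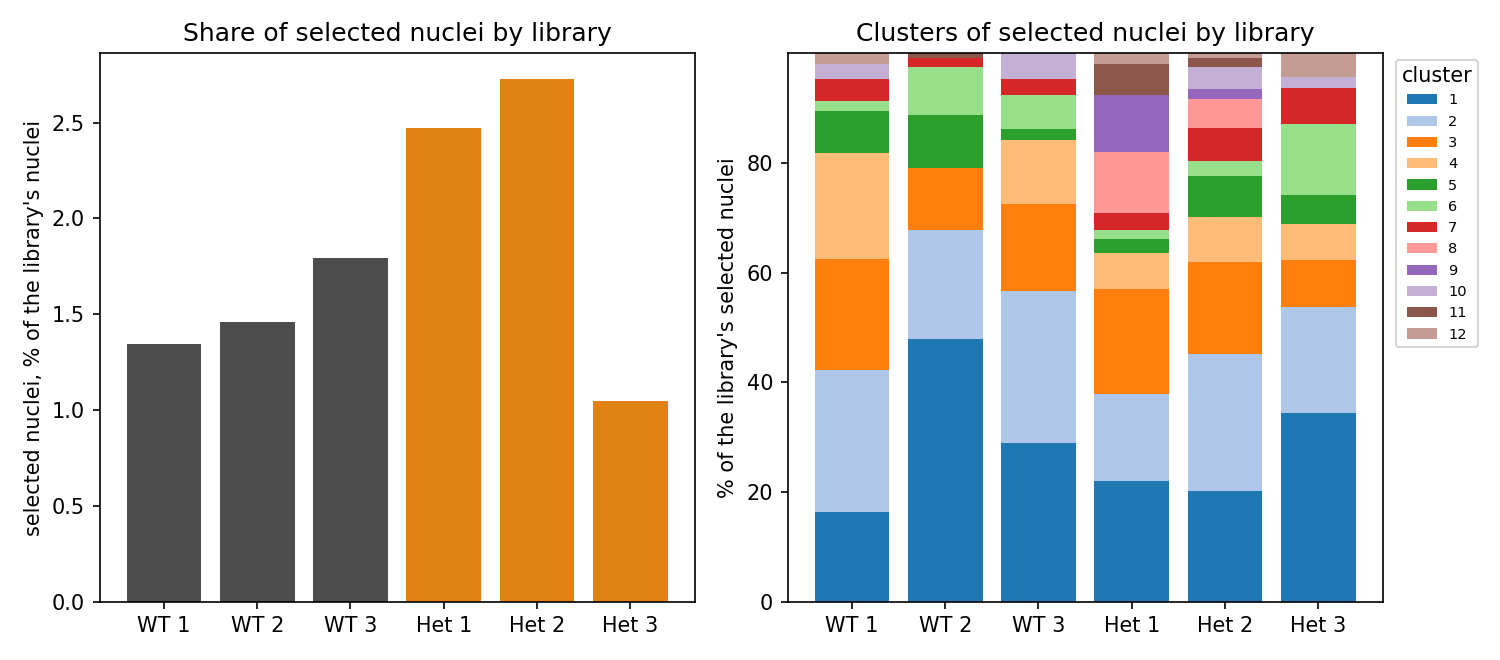
Left, selected nuclei as percent of all nuclei for 3 wild-type (WT) and 3 heterozygous (Het) libraries. Right, the 12 clusters as percent of each library's selected nuclei; clusters 8 and 9 appear only in heterozygous libraries 1 and 2.

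Celsr3 itself was low in the selected nuclei and above 0 in 7.95% of them. Its values were 0.106, 0.0609 and 0.131 in wild-type libraries 1 to 3 and 0.0564, 0.0658 and 0.0968 in heterozygous libraries 1 to 3. The groups overlapped, since wild-type library 2 was below heterozygous libraries 2 and 3. Heterozygotes averaged 73.6% of wild type (0.0992 ± 0.0355 in wild-type and 0.0730 ± 0.0211 in heterozygous libraries; log2 difference -0.37 ± 0.48 SE, limma adjusted p = 0.975). The labels do not give the allele, so it is not known whether the counted part of the transcript was deleted. In the same libraries the difference was -0.78 ± 0.14 in D1 and -0.50 ± 0.17 in D2 nuclei (limma adjusted p = 0.116 and 0.449).

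Across 6051 tested genes, none passed an adjusted p of 0.05 between genotypes in the limma fit, and the smallest adjusted p was 0.370. An unadjusted p under 0.05 was reached by 363 genes (6.0%), of which 172 had the higher value in heterozygotes. In 342 genes (5.65%) every heterozygous library was above every wild-type library, and in 330 (5.45%) every one was below. Counts of nuclei were 93 to 228 per library. The values that follow are for the 15 genes of smallest p, and none of them is a call.

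Among genes below 0, Hccs, the gene of the enzyme that attaches heme to cytochrome c (chromosome X, 169250193 to 169320372 in GRCm38), had 0.337, 0.426 and 0.393 in wild-type libraries 1 to 3 and 0.195, 0.206 and 0.151 in heterozygous libraries 1 to 3. The groups did not overlap (log2 difference -1.03 ± 0.20 SE, limma adjusted p = 0.370). Lrrtm1, a postsynaptic neurexin ligand gene, was even within each group, at 0.548, 0.496 and 0.497 in wild-type libraries 1 to 3 and 0.323, 0.311 and 0.301 in heterozygous libraries 1 to 3. This was a difference of -0.70 ± 0.15, with adjusted p = 0.450. Gm28750, annotated as antisense, stood at 1.03, 0.904 and 0.834 in wild-type libraries 1 to 3 and 0.513, 0.509 and 0.495 in heterozygous libraries 1 to 3, a difference of -0.85 ± 0.14. Whether strand was used in counting is not given in the sources used here, so Gm28750, A330015K06Rik and Ube4bos1 cannot be separated from genes on the other strand. The differences of these 3, 5530401A14Rik and Filip1l lay between -0.85 ± 0.14 and -0.56 ± 0.13. A330015K06Rik was also lower in heterozygous D1 nuclei, by -0.60 ± 0.06 (limma adjusted p = 0.0223). In D2 nuclei its difference was -0.53 ± 0.06 (limma adjusted p = 0.0640).

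Among genes above 0, Ptprd, the gene of a synapse-organizing receptor phosphatase, had 4.77, 4.63 and 5.17 in wild-type libraries 1 to 3 and 10.4, 7.70 and 7.67 in heterozygous libraries 1 to 3. All heterozygous libraries were above all wild-type libraries (log2 difference 0.81 ± 0.14 SE, limma adjusted p = 0.370). Sulf1, an extracellular sulfatase gene, had 0.288, 0.209 and 0.186 in wild-type libraries 1 to 3 and 0.605, 0.395 and 0.591 in heterozygous libraries 1 to 3, a difference of 1.18 ± 0.22. In cluster 8 its mean was 2.56 against 0.304 in the other selected nuclei. Gfra1, a GDNF receptor gene, differed by 1.08 ± 0.23, Fstl5 by 1.03 ± 0.22, Tmem196 by 0.79 ± 0.16 and Strip2 by 0.65 ± 0.15. Htr2c, the serotonin 2C receptor gene, had 0.413, 0.565 and 0.407 in wild-type libraries 1 to 3 and 0.697, 0.728 and 1.15 in heterozygous libraries 1 to 3, with heterozygous library 3 the highest and a difference of 0.86 ± 0.21. Dpp10, an auxiliary subunit gene of Kv4 potassium channels, had 10.9, 5.38 and 7.88 in wild-type libraries 1 to 3 and 18.6, 12.3 and 15.4 in heterozygous libraries 1 to 3. Its difference was 0.98 ± 0.23, and within clusters 1 to 3 pooled, chosen after seeing the data, it was -0.10. Clusters 8 and 9 were found only in heterozygous libraries 1 and 2, and their part in the differences of Sulf1 and Dpp10 over all selected nuclei was not tested.

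**Figure D4:**
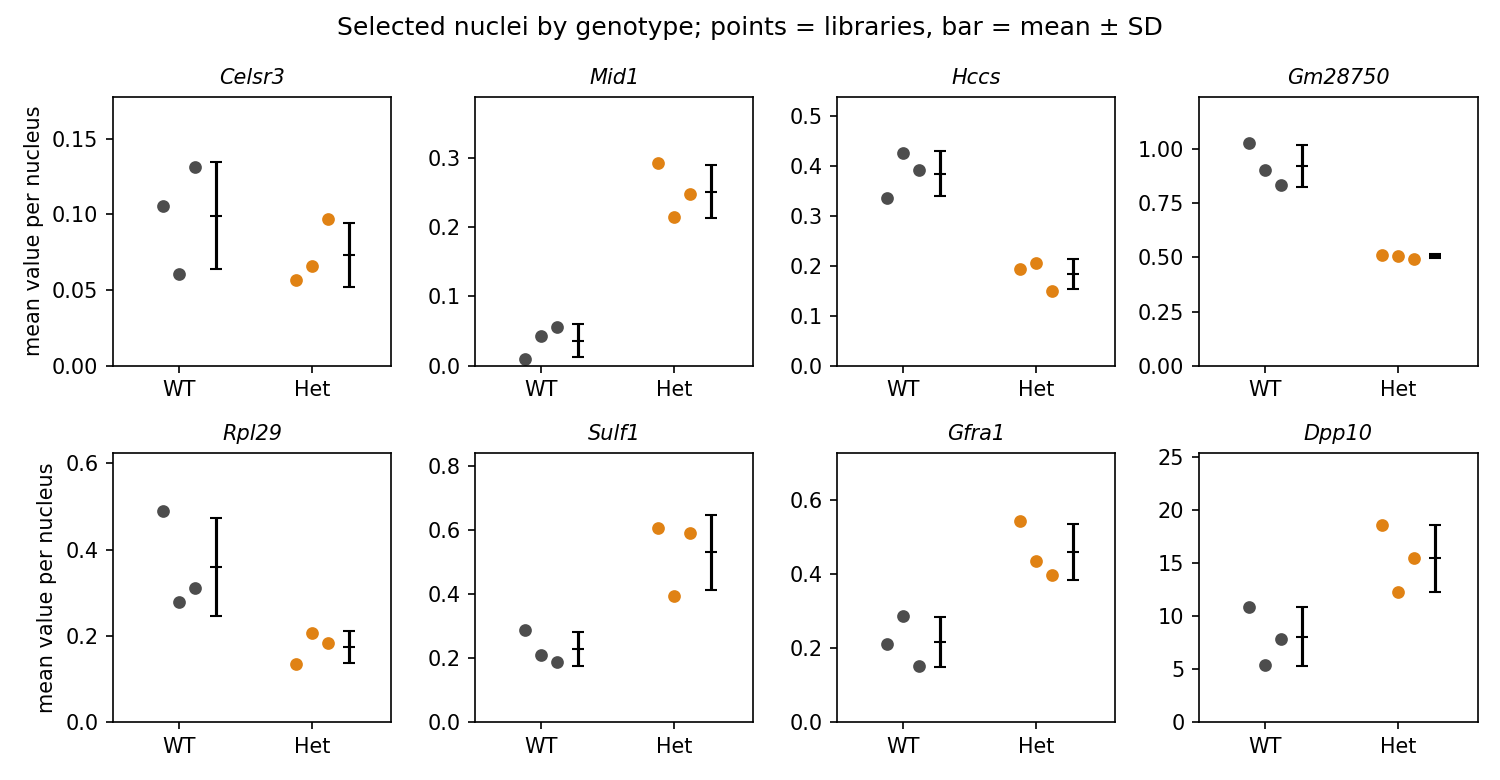
Mean value per nucleus in the selected nuclei for 8 genes; points are libraries, bars are mean ± SD of 3 wild-type (WT) or 3 heterozygous (Het) libraries. Celsr3 overlaps between genotypes, Mid1, Sulf1, Gfra1 and Dpp10 are higher and Hccs, Gm28750 and Rpl29 lower in all 3 heterozygous libraries.

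Mid1, a microtubule-associated ubiquitin ligase gene (chromosome X, 169685199 to 170005736 in GRCm38), lay below the expression filter and was tested only when the filter was dropped. Its values were 0.00962, 0.0435 and 0.0552 in wild-type libraries 1 to 3 and 0.292, 0.215 and 0.247 in heterozygous libraries 1 to 3, so all heterozygous libraries were far above all wild-type libraries. Without the filter it was the single gene called of 21533, with a log2 difference of 2.67 ± 0.40 SE and a limma adjusted p of 0.0162. In clusters 1 and 3 the heterozygous libraries were all above the wild-type libraries, with cluster 3 at 0.432, 0.237 and 0.50 against 0, 0.0769 and 0.0870. In cluster 2 heterozygous library 3 stood at 0.0556, below wild-type library 3 at 0.10. The same gene rose in the same mice by 2.03 ± 0.20 in D1 nuclei (limma adjusted p = 0.0223) and 2.50 ± 0.23 in D2 nuclei (adjusted p = 0.0180). The difference of the effect from D1 nuclei was 0.64 ± 0.47 (limma adjusted p = 0.951, no filter), and from D2 nuclei 0.17 ± 0.51 (adjusted p = 0.975).

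Earlier results on these libraries had listed Mid1, Hccs, Gm28750, Lrrtm1 and 3 further genes tested here, and these 3 were also lower in every heterozygous library. Rpl29, a ribosomal protein gene 2.39 Mb from Celsr3 on chromosome 9, had 0.490, 0.278 and 0.310 in wild-type libraries 1 to 3 and 0.133, 0.206 and 0.183 in heterozygous libraries 1 to 3, a difference of -0.98 ± 0.25 (SE). Rpl29 has processed pseudogenes that could share its reads. Aste1, 3.41 Mb from Celsr3, differed by -0.52 ± 0.19 (SE) and 4930512B01Rik by -0.45 ± 0.18 (SE). The direction of all these genes here is therefore not independent evidence. Gm15726 and Gm10538, also listed, were below the filter and were not tested.

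No gene list had a called member. Over all 6051 tested genes, 3197 were above and 2854 below 0, and the median log2 difference was 0.01. Of 4 tested eccentric markers outside the rule, 1 was above 0 and 3 below, and Adarb2 was lower in every heterozygous library (-0.40 ± 0.14 SE, as for the other values of this kind, limma adjusted p = 0.732). The difference for Grm8 was 0.01 ± 0.37. Of 7 tested striosome genes, 2 were above and 5 below 0 (median -0.16), with Bach2 at -0.37 ± 0.19, Oprm1 at -0.43 ± 0.26 and Nnat at 0.17 ± 0.20. Of 18 tested dopamine signalling genes, 15 were above and 3 below 0 (median 0.13), and Prkar2b, a protein kinase A regulatory subunit gene, was higher in every heterozygous library (0.25 ± 0.13). The 6 tested planar cell polarity genes had a median of 0.07 and ran from Prickle1 at -0.05 ± 0.13 to Ryk, a Wnt receptor gene, at 0.18 ± 0.21. The 47 adhesion and guidance genes split 23 above and 24 below, and Dcc was higher in every heterozygous library (0.47 ± 0.15, adjusted p = 0.706). Serotonin receptor genes had 4 tested members, of which Htr2c above 0 and Htr2a below (-0.20 ± 0.26) had the smallest p in each direction.

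The genotype effect of a gene did not pass the test of a difference from D1 nuclei for any of 6040 genes, nor from D2 nuclei for any of 6020, in limma models with the library as a block. An unadjusted p under 0.05 was reached by 359 (5.94%) and 325 (5.40%). Of the 359, 129 had the higher effect in the selected nuclei, whereas with size factors this held for 208 of 340. Htr2c had the interaction with the smallest adjusted p against D1, together with Ptprd and Fstl5, at 0.252. Its effect was 1.09 above that in D1 nuclei and 1.07 above that in D2 nuclei. In D1 nuclei, Htr2c differed by -0.23 and in D2 nuclei by -0.21, where its mean was 2.85 and 3.53, against 0.660 in the selected nuclei.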

How the data were processed

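Nuclear RNA of 3 wild-type and 3 Celsr3 heterozygous striata was analysed, 1 library per biological replicate. Per the submitters' processing notes, Cell Ranger, Seurat 4.1 and mm10/GRCm38 were used; roles and filters on nuclei are not given in the sources used here. The deposited values were treated as a score: UMI values corrected for depth by the authors and rounded (totals 4523 to 10638, coefficient of variation 10.7%), a unit read from the values, in which original depth is unknown. In 10.0% of nuclei (0.909% of the selected ones) at least 10 rare genes stood at 2 or 3 and none at 1. No count model or counting interval was used. Library means were tested with limma 3.58.1 (R 4.3.3, trended empirical Bayes) on log2(mean + 0.01), adjusted by Benjamini-Hochberg; every adjusted p in the text comes from it. Genes needed a mean of 0.02 and a summed value of 30 per library. Celsr3 fell below this filter and was added to the genes that passed. Clusters were made with leidenalg 0.10.2 at resolution 0.5. Doublets were scored by simulation, kept in, and left out as an alternative. Positions are from GENCODE for GRCm38. The members, lists and tests were chosen with earlier results of these data known. Genotype genes named are Celsr3, the 15 of smallest p, genes of earlier results and, for 7 lists, the smallest p in each direction; Mid1 was chosen after its values were seen. Genes against D1 and D2 nuclei are the 15 furthest above and 10 furthest below, and list genes of large difference. A few genes that the rule covers are not reported here. The test scripts were tested on simulated data.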

Additional observations from a re-analysis of the deposited data

How the results depend on the processing

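Dropping the filter on low values moved the number of genes called by genotype from 0 to 1, Mid1; other settings gave 0 calls, with smallest adjusted limma p from 0.0597 (clusters 1 to 3 weighted equally) upwards. The share of all nuclei differed by 0.228 to 1.07 percentage points over fits without 1 replicate, and the share of medium spiny neuron nuclei by 0.829 to 3.34. The median number of genes per nucleus, 31.5 higher in heterozygotes, differed by -14.2 (without wild-type replicate 1) to 73.3 (without wild-type replicate 3). Replicate numbers correlated at 0.030, -0.146 and -0.037 for numbers 1 to 3 and so did not pair the libraries. With replicate number as a block, the Celsr3 difference was -0.37 (adjusted p = 0.994), 0 genes were called, with 350 at an unadjusted p under 0.05, and the share of nuclei had a sign-flip exact permutation p of 0.5. Celsr3 kept its sign in every setting run, from -1.64 (cluster 3 alone) to -0.01 (cluster 1 alone). Of 487 repeats for 28 genes, 15 turned sign and none passed. Within clusters 1 to 3, Dpp10 was -0.10 pooled, -0.13 equally weighted, -0.24 in cluster 2 and -0.34 in cluster 3. Grm8 was -0.0034 with size factors, -0.18 with array weights, -0.076 with nuclei matched on genes per nucleus, -0.80 in cluster 3 and, over fits without 1 replicate, -0.51 (without wild-type replicate 2), -0.25 (without heterozygous replicate 3) to 0.32. Adarb2 was 0.15 and Bach2 0.13 in cluster 2. Ryk was -0.056 with Cacng5 or Pcdh8, -0.043 under array weights, and -0.00037 to 0.39 over fits without 1 replicate. The count above D1 and D2 nuclei was 467 in cluster 3 alone, against 724; in the stricter set (marker sum at least 8, Foxp2 at least 4) 497 of its 589 genes above and 570 of its 622 below were shared with the whole set. Leaving out high doublet scores, the cluster settings and the changed member sets of the description were chosen after seeing the data. The cause of these differences was not tested. With 93 to 228 nuclei per library, levels near the filter rest on few values.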

Other observations

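Of 10 serotonin receptor genes, 3 (Htr2c, Htr1b and Htr2a) were below both canonical sets in 6 of 6 libraries and none was above. Htr2c averaged 0.660 in the selected nuclei, 2.85 in D1 nuclei and 3.53 in D2 nuclei. Htr1f, a serotonin 1F receptor gene, ranged over 1.17 to 3.73, with wild-type library 2 the lowest and wild-type library 1 the highest, and averaged 1.36 in D1 nuclei. Htr4 averaged 1.24 in the selected nuclei, 0.550 in D1 nuclei and 1.37 in D2 nuclei. Of 12 acetylcholine, adenosine, cannabinoid and related receptor genes, 2 (Gpr149 and Chrm2) were above both sets and 1 (Cnr1) below, with Chrm2, a muscarinic receptor gene, at 0.381 in the selected nuclei, 0.105 in D1 nuclei and 0.0728 in D2 nuclei. Chrm3, a muscarinic receptor gene high in D2 nuclei, averaged 1.35 in the selected nuclei, 0.258 in D1 nuclei and 3.68 in D2 nuclei. Gpr149, an orphan receptor gene, was above both sets, with 1.27 in the selected nuclei, 0.389 in D1 nuclei and 0.499 in D2 nuclei, and the cannabinoid receptor gene Cnr1 was below both, with 0.811 in the selected nuclei, 2.29 in D1 nuclei and 2.83 in D2 nuclei, while its mean in cluster 1 was 1.89 against 0.350 in the other selected nuclei. Dcx, the doublecortin gene of migrating neurons, averaged 0.904 in the selected nuclei, 0.281 in D1 nuclei and 0.218 in D2 nuclei and was above both sets in 6 of 6 libraries. Of 6 neuroblast genes, Dcx among them, 5 were above both sets in 6 of 6 libraries and none was below. They summed to 1.76 in the selected nuclei, 0.537 in D1 nuclei, 0.465 in D2 nuclei and 0.733 in all other nuclei.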
